A study of Danio rerio with 4 samples.

Results

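Collagen genes outside basement membrane type IV were described in injured zebrafish ventricles with and without a working ccn2a gene. They were chosen by name: genes whose symbol starts with col, a type number, the letter a and a chain number, leaving out every col4a symbol, with a mean normalised read count of 10 or more over the 4 libraries. In all, 41 rows of the table had such a name, 32 of them reached that mean, and the table held 19875 genes. By collagen class, the 32 were 12 fibrillar genes, 5 FACIT genes (fibril-associated collagens with interrupted triple helices), 5 genes of microfibrillar type VI, 4 genes of the network types VIII and X, and 6 genes of other classes. The mean was taken over both genotypes, so a gene that is low in one could enter through the other. Just inside that limit lay col11a2 at a mean of 11 and col24a1 at 13.75, and just outside it col17a1b at 9.5, col7a1l at 9.25 and col14a1b at 8.0.

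The study asked what the secreted matricellular protein Ccn2a does in the injured heart. Its mutant group is homozygous (ccn2a-/-), its control group is wild-type, and both were sampled 4 days after injury, with 2 ventricle libraries each and with bulbus arteriosus and atrium dissected away. All fish of both groups carried the injury, a cryoinjury of the ventricle in this study, and no uninjured heart was analysed here. The labels give neither the ccn2a lesion, the strain, the age of the fish nor the number of hearts per library, so p-values reflect how far the libraries of a genotype differ, a scatter that may be technical. In bulk tissue, fewer cells of a type and less RNA per cell cannot be told apart.

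Collagens are secreted proteins of 3 chains wound around each other, and the classes differ in what the wound chains build. Fibrillar collagens form the banded fibrils that give scar and tendon their strength, with type I as the bulk and types V and XI as minor chains that start fibrils and limit their width. FACIT collagens sit on the surface of those fibrils and link them to the surrounding matrix. Type VI makes beaded microfilaments near cell surfaces and basement membranes, and types VIII and X make open networks. In zebrafish the cryoinjured ventricle first lays down a collagen-rich scar and later clears it as muscle regrows, with fibroblasts and epicardium-derived cells as known makers of fibrillar collagen.

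Approximate depth was between 17.2 and 21.5 M reads per library. Values are read counts that the authors divided by a size factor per library and rounded, here called normalised counts. The transcript of ccn2a (ctgfa in the table) stood at 3070 and 1473 in the mutants versus 4737 and 4411 in wild type; its gene-level value cannot show the lesion. Mitochondrial-genome transcripts took 7.66% of wild-type replicate 2 and between 13.4% and 14.7% of the other libraries. The cardiomyocyte markers myl7 and tnnt2a were abundant in every library, myl7 at 139544 or more and tnnt2a at 53887 or more.

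Collagen genes were more often lower than higher in the mutant ventricles, but the separation from wild type was small and no gene passed the test. Of the 32 genes, 25 had a lower fitted level in the mutant and 7 a higher one, a share of 78.1% lower where the share over all 16730 genes tested was 50%. Among the 25, col10a1a, col24a1 and col28a1b reached the minimum mean through wild type alone, which fixed the direction of their means. Also counted as lower were genes with a log2 fold change near 0, col1a1b at -0.02, col1a2 at -0.03 and col17a1a at -0.04. The median log2 fold change (mutant minus wild type, on log2(normalised count + 1)) was -0.28, against 0.00 over all genes. When libraries were set to equal totals without mitochondrial-genome genes, the shares lower were 81.2% of the collagens and 63.3% of all genes, and under quantile normalisation 78.1% and 48.6%. With limma over all genes, 0 collagen genes had an adjusted p below 0.05, as had 0% of all genes, and the smallest adjusted p among the collagens was 0.381. At an unadjusted p below 0.05 there were 6 collagen genes (18.8%), col11a1b, col27a1b, col12a1b, col21a1, col28a1b and the shorter of 2 col6a3 entries, against 12.8% of all genes. All 6 were lower in the mutant and 0 higher, where 6.93% of all genes were called lower and 5.89% higher; col28a1b had reached the minimum mean through wild type alone, which fixed its direction and leaves 5 others. Both mutants lay below both wild types at 11 of 32 genes (34.4%), near the 25.7% of all genes, and above them at 2 of 32, col15a1b and col18a1b, where all genes gave 26.6%. An exact permutation test of genotype on 4 libraries cannot give a p below 0.333.

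Individual libraries carried much of this. Without wild-type replicate 2 the number of collagen genes at an unadjusted p below 0.05 was 1 of 32, and without mutant replicate 1 it was 3. Those omissions also took the share over all genes from 12.8% to 2.68% and 3.87%. The median log2 fold change was -0.12 without wild-type replicate 2, -0.10 without mutant replicate 2 and -0.60 without mutant replicate 1. The share of collagens lower in the mutant fell to 56.2% without mutant replicate 2, against 49.0% of all genes. Leaving out wild-type replicate 2 gave 59.4% against 49.9%. It was 81.2% without mutant replicate 1 and also without wild-type replicate 1.

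**Figure D1:**
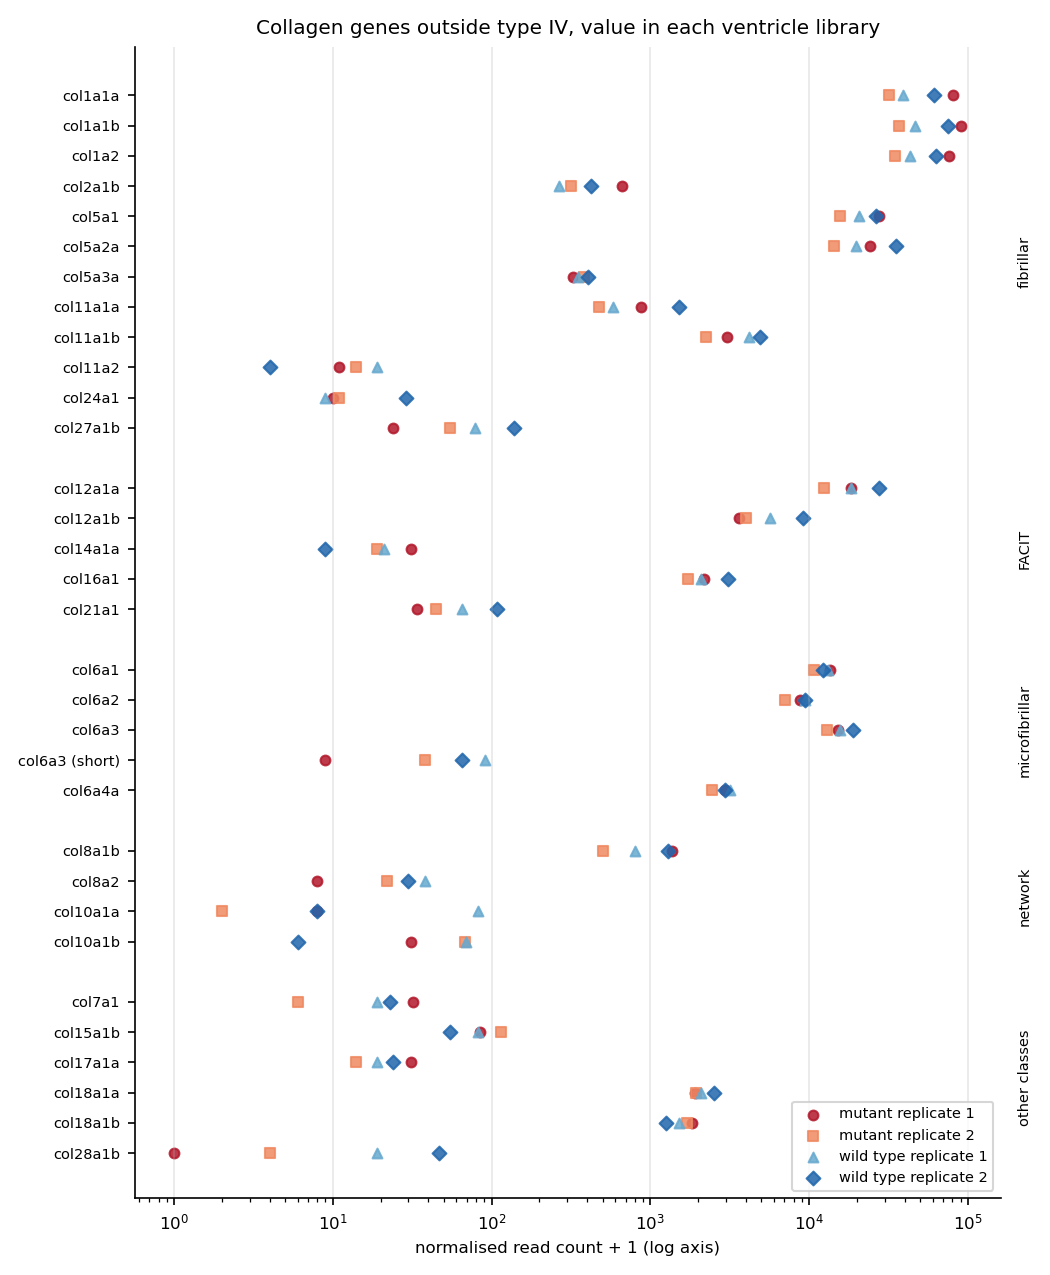
Normalised count + 1 (log axis) of each of the 32 collagen genes in the 4 ventricle libraries, grouped by class. Each point is 1 library; col6a3 (short) is the shorter of 2 entries with that symbol, and at col11a1b and col12a1b both mutants lie below both wild types, while the collagen I genes overlap.

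The fibrillar genes were led by collagen I, whose level did not follow genotype. The gene col1a1a, for an alpha 1 chain, was at 80051 and 31894 in replicates 1 and 2 of the mutant and at 39037 and 60766 in replicates 1 and 2 of wild type. Its duplicate col1a1b, which encodes the chain long called alpha 3 in fish, was at 90973 and 37056 against 46262 and 74525. The alpha 2 chain gene col1a2 was at 75604 and 34573 against 43324 and 62660. In each of these genes mutant replicate 1 was highest, wild-type replicate 2 came next, and mutant replicate 2 was lowest, so that the mutants enclosed the wild types. The means ± SD of col1a1a were 55972 ± 34052 and 49902 ± 15365 (n = 2 each), with a log2 fold change of 0.05 (SE 0.504). That of col1a1a turned to -0.28 under quantile normalisation and -0.13 at equal library totals, while col1a1b was at -0.02 (SE 0.508) and col1a2 at -0.03 (SE 0.452). Without mutant replicate 1 the 3 genes lay between -0.66 and -0.59, and without mutant replicate 2 between 0.54 and 0.72, so a moderate difference in either direction could not be told from none.

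Although collagen I varied by 2.19-fold to 2.51-fold between libraries, its chains kept nearly fixed proportions. The ratio of col1a1a to col1a1b was 0.88 and 0.861 in the mutants and 0.844 and 0.815 in wild type, a 1.08-fold range. The ratio of col1a1b to col1a2 was 1.2 and 1.07 against 1.07 and 1.19. The 3 genes lie on chromosomes 3, 12 and 19, as the table places them.

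Collagen V, which co-assembles with collagen I and starts its fibrils, went partly the same way. The alpha 1 gene col5a1 was at 27697 and 15633 in the mutants and at 20716 and 26306 in wild type, with overlapping groups. Its log2 fold change of -0.17 (SE 0.344) turned to 0.25 without mutant replicate 2 and, leaving out wild-type replicate 2, 0.01. The alpha 2 gene col5a2a was at 24020 and 14324 against 19783 and 35062, with a log2 fold change of -0.51 (SE 0.393) that was -0.09 without wild-type replicate 2 and -0.13 without mutant replicate 2; leaving out wild-type replicate 1 gave -0.92. Wild-type replicate 2 stood out at col5a2a more than at col5a1: the ratio of col5a2a to col5a1 was 1.33 there and between 0.867 and 0.955 in the other libraries. The third chain, col5a3a, varied little, at 326 and 383 against 351 and 403 (log2 fold change -0.09, SE 0.225, or 0.03 without mutant replicate 1 and, leaving out wild-type replicate 2, 0.01).

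Collagen XI, known in mammals as the fibril-starting chain of cartilage and related to collagen V, held one of the clearer separations. Its gene col11a1b was at 3036 and 2252 in the mutants and at 4154 and 4911 in wild type, with the groups apart. With a log2 fold change of -0.79 (SE 0.229), its level was 1.73-fold lower in the mutant (limma, unadjusted p = 0.0137, adjusted p = 0.381), and the estimate ranged from -1.0 to -0.57 when single libraries were left out. The duplicate col11a1a was at 873 and 477 against 580 and 1515. Its groups overlapped, wild-type replicate 2 was far above the others, and without that library the log2 fold change of -0.54 (SE 0.507) turned to 0.15.

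Among the remaining fibrillar genes, col27a1b was the lowest in the mutants relative to wild type. This gene of a fibrillar collagen found in mammalian cartilage was at 23 and 54 against 78 and 138, with a log2 fold change of -1.53 (SE 0.535, limma, unadjusted p = 0.0288, adjusted p = 0.381) that ranged from -2.13 to -0.93 with single libraries left out. The groups were apart, but mutant replicate 2 and wild-type replicate 1 lay closer to each other than to their own partners on the fold scale. In contrast, col2a1b, a duplicate of the main cartilage collagen gene, was at 661 and 316 against 265 and 424, with a log2 fold change of 0.45 (SE 0.417) that turned to -0.08 without mutant replicate 1. The 2 low genes col11a2 and col24a1 lay between 3 and 28 in every library. Of these, col24a1, counted next as lower, reached the minimum mean through wild type alone. Over the 12 fibrillar genes, 9 were lower and 3 higher, the median log2 fold change was -0.13 (0.07 without mutant replicate 2 and, leaving out wild-type replicate 2, 0.08), and both mutants lay below both wild types at 2, col11a1b and col27a1b, which is 16.7% where all genes gave 25.7%.

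Most FACIT genes were at a lower level in the mutant, and collagen XII was the most abundant of them. Collagen XII coats collagen I fibrils and has been described in the epicardium and connective tissue of the regenerating zebrafish heart. Its gene col12a1b was at 3624 and 4016 in the mutants and at 5697 and 9105 in wild type. The mutants nearly coincided, and each lay below both wild types. The means ± SD were 3820 ± 277 and 7401 ± 2410 (n = 2 each), with a log2 fold change of -0.92 (SE 0.272), a level 1.89-fold lower in the mutant (limma, unadjusted p = 0.015, adjusted p = 0.381). It stayed between -1.25 and -0.58 when single libraries were left out.

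The duplicate col12a1a was at 18391 and 12419 against 18410 and 27669. Mutant replicate 1 and wild-type replicate 1 were all but equal there, so the separation of the groups rests on the other libraries, and the log2 fold change was -0.58 (SE 0.322, limma, adjusted p = 0.427), or -0.28 without wild-type replicate 2 and -0.30 without mutant replicate 2. Collagen XVI, another fibril-associated type, gave col16a1 at 2193 and 1734 against 2074 and 3091, with overlap and a log2 fold change of -0.38 (SE 0.261) that was -0.09 without wild-type replicate 2, -0.21 without mutant replicate 2 and, leaving out wild-type replicate 1, -0.66.

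At a lower level, the collagen XXI gene col21a1 was at 33 and 44 against 64 and 108, with the groups apart and a log2 fold change of -1.11 (SE 0.42, limma, unadjusted p = 0.039, adjusted p = 0.381), or -0.73 without wild-type replicate 2. The collagen XIV gene col14a1a went the other way at 30 and 18 against 20 and 8, with overlap. In all, the mutant was lower at 4 of 5 FACIT genes and higher at 1. Their median log2 fold change of -0.58 was -0.28 without wild-type replicate 2. At col12a1a, col12a1b, col16a1 and col21a1, wild-type replicate 2 was the highest library.

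**Figure D2:**
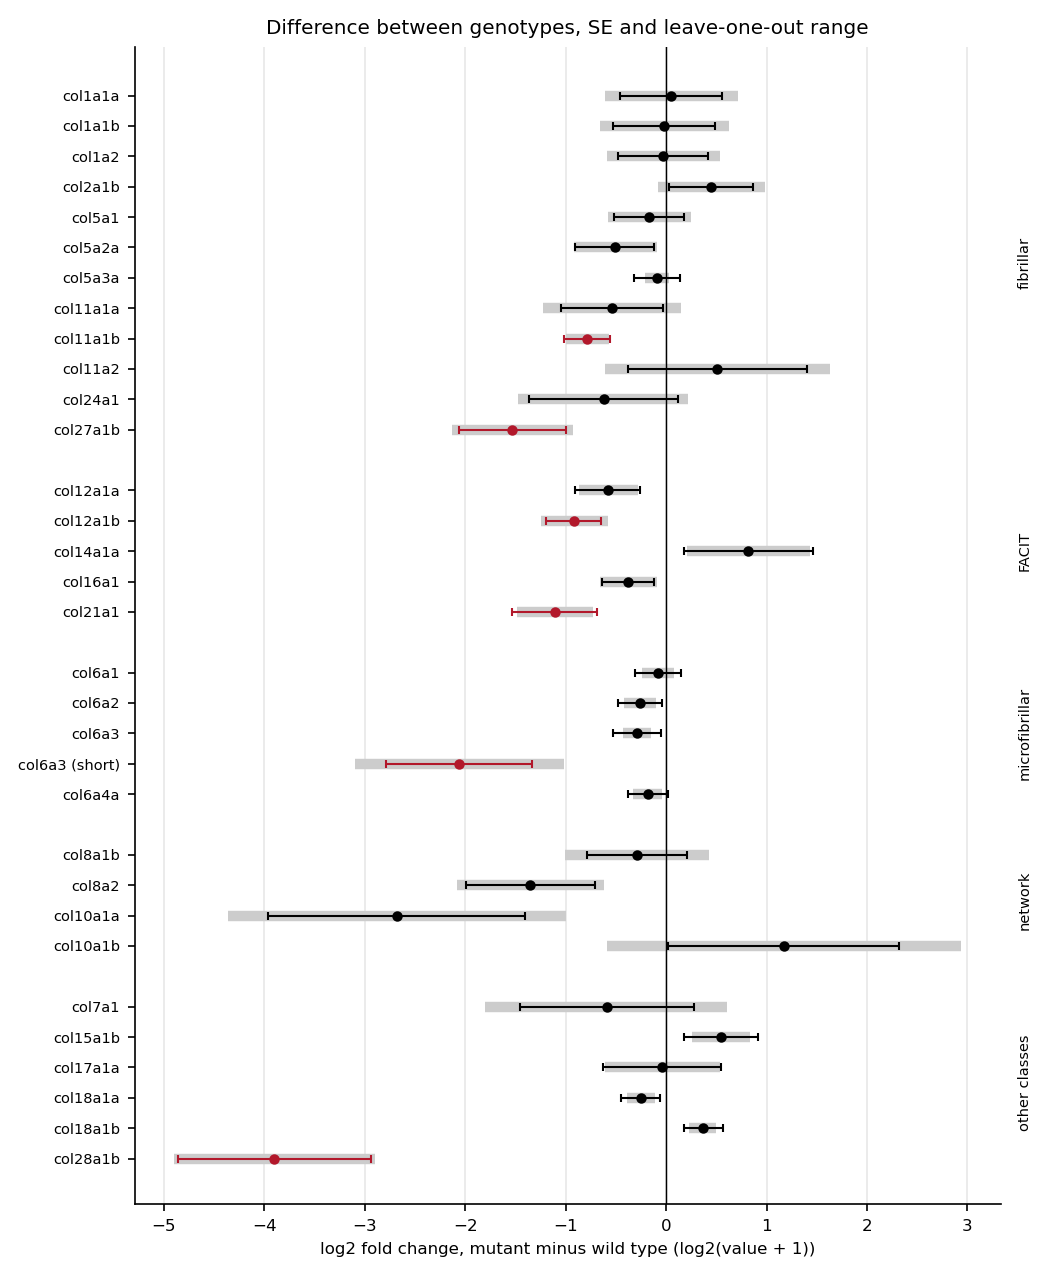
Log2 fold change (mutant minus wild type, on log2(value + 1)) of each collagen gene, grouped by class. Points are the limma estimates from 2 libraries per genotype with bars of 1 SE, red points have an unadjusted p below 0.05, and grey bands span the estimates with each library left out; the bands of the collagen I genes cross 0 and those of col11a1b and col12a1b do not.

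The main collagen VI genes varied little between libraries. Its 3 classical chains assemble into 1 molecule, and mutations in their genes cause muscle disease in humans. The alpha 1 gene col6a1 was at 13467 and 10743 in the mutants and at 13170 and 12257 in wild type (log2 fold change -0.08, SE 0.228, or 0.08 without mutant replicate 2), with overlap. The alpha 2 gene col6a2 was at 8797 and 7040 against 9425 and 9452, so that both mutants were lower, by -0.26 on the log2 scale (SE 0.216), or -0.10 without mutant replicate 2 and -0.42 without mutant replicate 1.

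The alpha 3 gene col6a3 (ENSDARG00000077139) was at 15163 and 13043 against 15657 and 18999 (log2 fold change -0.29, SE 0.236, or -0.15 without wild-type replicate 2), the mutants again lower but mutant replicate 1 close to wild-type replicate 1. The further chain gene col6a4a was at 2970 and 2429 against 3168 and 2939 (log2 fold change -0.18, SE 0.199, or -0.04 without mutant replicate 2), with overlap. From lowest to highest library these 4 genes spanned 1.25-fold to 1.46-fold, against 2.19-fold or more for each collagen I gene.

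A second entry with the symbol col6a3 (ENSDARG00000095915) was at 8 and 37 in the mutants and at 90 and 64 in wild type. Its log2 fold change was -2.06 (SE 0.729, limma, unadjusted p = 0.0302, adjusted p = 0.381), with a range of -3.1 without mutant replicate 2 to -1.02 without mutant replicate 1. It lies on chromosome 9 from 23983866 to 23994225 on the minus strand and overlaps the longer entry, at 23914317 to 23990416 on the same strand. Reads from the shared stretch cannot be placed in one or the other from gene-level values, so its value is uncertain. The mutant was lower at all 5 entries, whose median log2 fold change was -0.26. The genes col6a2 and col6a1 are neighbours on chromosome 11 on the same strand, 36207 bases apart with no other gene of the table starting between them, and their ratio stayed between 0.653 and 0.771.

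The network genes were few and mostly low. The gene col8a1b, for a collagen VIII chain that vascular cells make in mammals, was at 1361 and 502 in the mutants and at 799 and 1285 in wild type. It followed the order of collagen I, with mutant replicate 1 highest and mutant replicate 2 lowest, and its log2 fold change of -0.29 (SE 0.494) turned to 0.43 without mutant replicate 2 and, leaving out wild-type replicate 2, to 0.05. The other 3 genes, col8a2, col10a1a and col10a1b, lay between 1 and 81. Of these, col10a1a, counted next as lower, reached the minimum mean through wild type alone. Of the 4 genes, 3 were lower and 1 higher, and 0 had an unadjusted p below 0.05. Their median of -0.82 rests mainly on the low genes, since col8a1b alone gave -0.29.

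The multiplexin genes, whose products sit in the basement membrane zone of vessels and epithelia, included the only genes with both mutants above both wild types. The collagen XVIII gene col18a1b was at 1839 and 1710 in the mutants and at 1507 and 1251 in wild type, with a log2 fold change of 0.37 (SE 0.196, limma, adjusted p = 0.415), or 0.23 without wild-type replicate 2. Its duplicate col18a1a was at 1916 and 1927 against 2079 and 2522, with a log2 fold change of -0.25 (SE 0.194), or -0.11 without wild-type replicate 2. The duplicates therefore pointed in opposite directions, each with the groups apart, and their ratio, col18a1b to col18a1a, was 0.96 and 0.887 in the mutants versus 0.725 and 0.496 in wild type. The collagen XV gene col15a1b was at 84 and 113 against 81 and 54 (log2 fold change 0.55, SE 0.37, or 0.26 without wild-type replicate 2), with mutant replicate 1 and wild-type replicate 1 nearly equal.

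Endothelial markers were higher in the same libraries. All 6 of 6 tested (cdh5, kdrl, fli1a, pecam1, tie1 and tek) had both mutants above both wild types, where 26.6% of all genes did, with summed counts of 21946 and 21781 in the mutants against 17032 and 15318. Their part in the values of col18a1b and col15a1b was not tested.

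The largest fold difference was that of col28a1b, a collagen with von Willebrand factor A domains. It was at 0 and 3 in the mutants and at 18 and 46 in wild type. That corresponds to about 3 reads against 78, of which 61 came from wild-type replicate 2. Scaled for depth, wild type was 20.8-fold higher, with an exact 95% interval of 6.87 to 103 that covers counting error only. The limma test gave an unadjusted p of 0.00651 and an adjusted p of 0.381. The gene passed the minimum mean through the wild-type libraries alone, which fixed the direction of its means. For that reason neither the interval nor the p-value can count as support for a genotype difference. Wild type alone also carried col10a1a past the minimum mean, with means of 4 in the mutants and 44 in wild type. So it did for col24a1, with means of 9.5 and 18, and at both col10a1a and col24a1 the groups overlapped. The skin and anchoring genes col7a1 and col17a1a lay between 5 and 31 with overlapping groups.

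**Figure D3:**
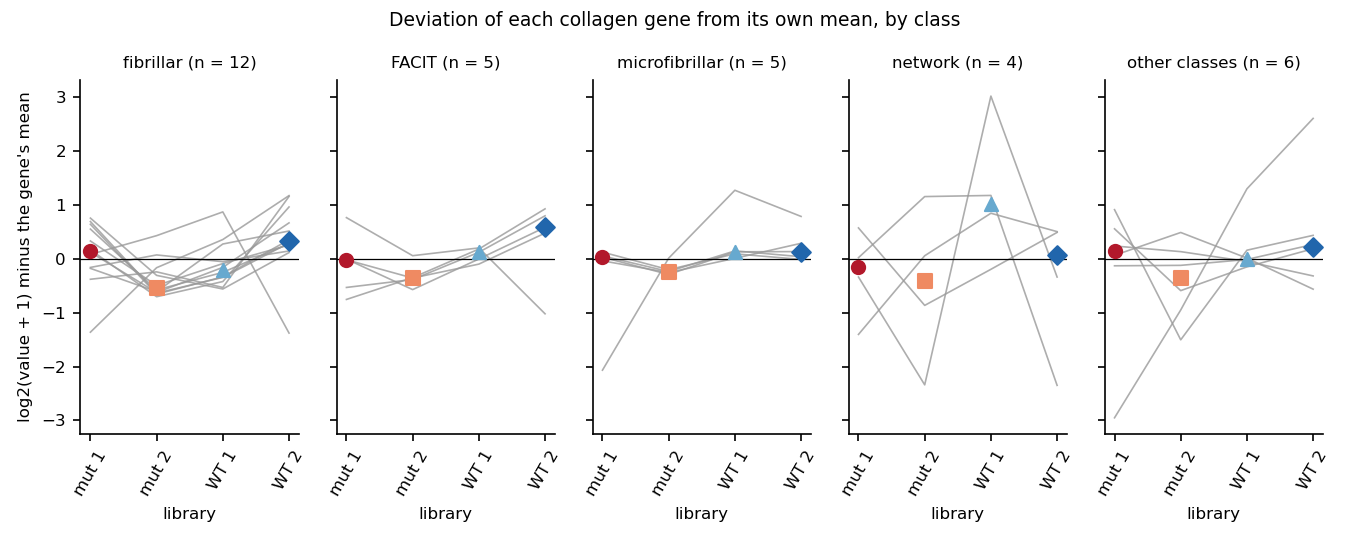
Deviation of log2(value + 1) from the gene's own mean over the 4 libraries, 1 panel per class and 1 grey line per gene, with coloured symbols for the class median in each library. The fibrillar medians are 0.14 and -0.54 in mutant replicates 1 and 2 and -0.21 and 0.32 in wild-type replicates 1 and 2, and the FACIT medians are -0.02, -0.36, 0.12 and 0.58.

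Read by library, the collagens were set apart most by mutant replicate 2. It was the lowest library at 17 of 32 genes (53.1%), where it was lowest at 18.6% of all genes tested. Wild-type replicate 2 was the highest at 14 of 32 (43.8%), against 33.4% of all genes. The 15 collagens with a mean of 1000 or more showed it further, with mutant replicate 2 lowest at 12 of 15 (80%) against 16.5% of the 2660 genes of that level. In that range 13 of 15 collagens were lower in the mutant (86.7%), against 38.6% of genes of that level. This share also depended on single libraries. Without mutant replicate 2 the log2 fold changes of col1a1b, col1a2, col5a1 and col6a1 turned to 0.63, 0.54, 0.25 and 0.08. Without wild-type replicate 2 those of col1a1b, col1a2 and col5a1 turned to 0.33, 0.24 and 0.01. The median deviations over all 32 were 0.04 and -0.33 in the mutants and 0.01 and 0.29 in wild type, so mutant replicate 1 sat beside wild-type replicate 1.

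In total, collagen transcripts took 1.74% and 1.01% of the summed normalised counts in the mutants and 1.37% and 2.18% in wild type. Without mitochondrial-genome genes in the total, the shares were 2.04% and 1.17% against 1.58% and 2.36%. On either scale the genotypes overlapped. Collagen I made up most of that total, 66.1% and 53.7% in the mutants and 52.1% and 55.7% in wild type.

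Set against collagen I in the same library, a comparison chosen after the values were seen, several fibril-associated and fibril-starting genes lay apart by genotype. As a percentage of the summed collagen I chains, col12a1a was at 7.46 and 12 in the mutants and 14.3 and 14 in wild type, and col12a1b at 1.47 and 3.88 against 4.43 and 4.6. On that scale col5a2a was at 9.74 and 13.8 against 15.4 and 17.7, and col11a1b at 1.23 and 2.18 against 3.23 and 2.48. These are ratios of read counts not corrected for gene length, so they compare libraries and not genes. Of 19 genes outside collagen I with a mean of 50 or more, 7 had both mutants below both wild types in this ratio, col2a1b was the only one above, and 11 overlapped. Among the 7, col21a1 and col27a1b reached the mean of 50 through wild type alone, which fixed the direction of their mean counts. Of the 13019 genes of that level outside collagen I, 5.23% had both mutants below in the same ratio and 4.05% above. The collagen I sum was 246628 and 103523 in the mutants and 128623 and 197951 in wild type. A gene that does not vary with collagen I therefore tends to overlap in this ratio, so these shares do not measure a genotype difference. Because collagen I differed little between genotypes in mean log2 level, dividing by it left log2 differences almost unchanged. That of col12a1b, for example, was -0.92 both in the ratio and in the counts, which adds no support. At all of the 7 except col8a1b, mutant replicate 1, which had the most collagen I, gave the lowest ratio. The collagen VI ratios overlapped, with col6a1 at 5.46 and 10.4 against 10.2 and 6.19.

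**Figure D4:**
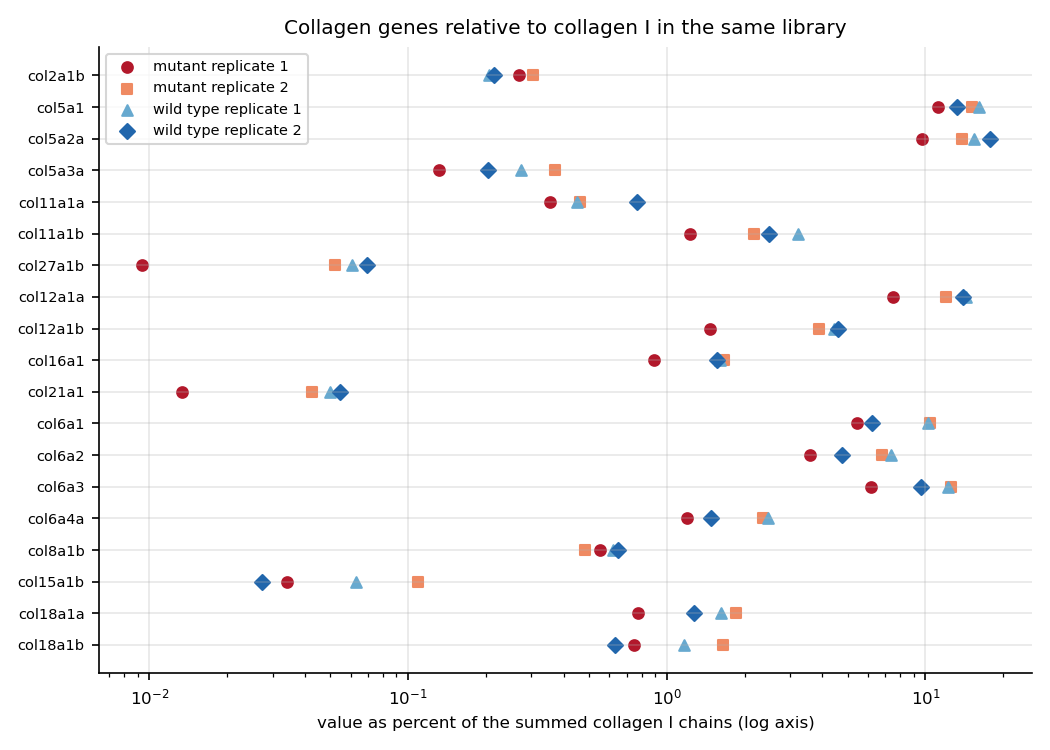
Each of the 19 collagen genes outside type I with a mean of 50 or more, as a percentage of the summed collagen I chains of the same library (log axis). Points are single libraries, and at col12a1a, col12a1b, col21a1, col27a1b, col5a2a, col11a1b and col8a1b both mutants lie left of both wild types. Of these, col21a1 and col27a1b reached the mean of 50 through wild type alone.

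Genes that fold, carry, cut and bind collagen were read beside the chains. Among 29 genes tested for prolyl and lysyl hydroxylation, chaperoning and export from the endoplasmic reticulum, the mutant was lower at 20 and higher at 9; the median was -0.11 and there were 4 at an unadjusted p below 0.05, all lower, near the 12.8% of all genes called in either direction. The 3 with the smallest p included the COPII coat genes sec24d, at 510 and 588 against 834 and 995, and sec31a, at 638 and 810 against 958 and 1294, which serve the carriers of bulky procollagen. The prolyl 3-hydroxylase gene p3h1 was at 340 and 315 against 492 and 706 (log2 fold change -0.85, SE 0.252, limma, adjusted p = 0.381). In these 3 genes, picked for the smallest p, both mutants lay below both wild types. Over the list the groups were apart at 14 of 29 genes, where 52.3% of all genes had them apart.

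Procollagen processing genes, which cut the end pieces from secreted chains, were lower at 7 of 9, where 50% of all genes were, with a median of -0.42 and 0 at an unadjusted p below 0.05 (limma; 0 at an adjusted p below 0.05 as well). The N-proteinase genes adamts14, at 3 and 15 against 25 and 31, and adamts3, at 1 and 23 against 38 and 46, had the smallest p, followed by the enhancer gene pcolcea at 4028 and 2683 against 3755 and 5130. Of the 9 genes, 2 had the groups apart, adamts14 and adamts3, against 52.3% of all genes. The first of these, adamts14, also counted as lower, reached the minimum mean through wild type alone, which fixed the direction of its means. Their summed counts overlapped, at 10098 and 6565 against 8624 and 11202. Median deviations were 0.08 and 0.07 in the mutants and 0.09 and 0.45 in wild type, so only wild-type replicate 2 stood apart. Collagenase and gelatinase genes were lower at 7 of 9 (median -0.39), with 1 at an unadjusted p below 0.05, near the 12.8% of all genes. Among those the membrane-type protease gene mmp15a was at 111 and 473 against 780 and 954, its duplicate mmp15b at 31 and 76 against 117 and 100, and the collagenase gene mmp13b at 130 and 52 against 631 and 96.

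Collagen receptor genes were lower at 10 of 11, with a median of -0.62 and 3 at an unadjusted p below 0.05, 2 lower and 1 higher, where 50% of all genes were lower and 12.8% were called. The list was lowest in mutant replicate 1, unlike the collagens, with median deviations of -0.48 and -0.07 in the mutants and 0.13 and 0.38 in wild type. Its summed counts overlapped, at 6446 and 7886 against 7510 and 8244. The gene mrc2, for an endocytic receptor that takes up collagen for breakdown, was at 21 and 26 in the mutants and at 91 and 126 in wild type. Its log2 fold change was -2.15 (SE 0.388, limma, unadjusted p = 0.00145, adjusted p = 0.381). The duplicated integrin beta 1 genes pointed in opposite directions, itgb1a at 4142 and 4110 against 2878 and 2683 and itgb1b at 671 and 1861 against 2367 and 3137. All 3, picked for the smallest p, had the groups apart. Over the list that held at 6 of 11 genes, against 52.3% of all genes.

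Markers of the cells that could supply these transcripts followed them in part. Of 9 fibroblast markers other than collagens, the mutant was lower at 6 and higher at 3 (median -0.22), and their summed counts were 69737 and 38959 in the mutants against 46506 and 43325. That sum was led by the periostin gene postnb, at 45490 and 21172 against 24073 and 22735. This gene was highest in mutant replicate 1 and, by a small margin, lowest in mutant replicate 2, the libraries with the most and the least collagen I. It did not follow collagen I in wild type, where replicate 2 had more collagen I than replicate 1 but slightly less postnb. The fibroblast surface gene thy1, the lowest in the mutants of the 9, was at 263 and 74 against 520 and 925, a log2 fold change of -2.3. The other fibroblast markers ranged from -0.98 at fbln1 to 0.41 at postnb. Among them dcn, lum and tcf21 were at 0.06, -0.04 and 0.00. Of 7 epicardial markers 6 were lower, with sums of 9609 and 8952 against 9772 and 10953. Mural markers divided evenly, at 3 lower and 3 higher.

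Other cell types differed between libraries too. Cardiomyocyte markers were higher at 6 of 7 tested, with sums of 840982 and 744461 in the mutants against 634434 and 400670, lowest in wild-type replicate 2. Macrophage markers were lower at 5 of 6, with sums of 10177 and 11174 against 13940 and 14194. Bulbus and smooth muscle markers were lower at 3 and higher at 3 of 6 tested (median 0.08), with sums of 13563 and 10662 against 12499 and 14456. The bulbus elastin gene elnb was at 376 and 317 against 944 and 494, while smtnb was at 2920 and 2986 against 2763 and 1860. Skin markers were lower at 4 and higher at 2 of 6 tested (median -0.35), with sums of 5457 and 7076 against 8315 and 12158. The keratin gene krt4 led that sum, at 4770 and 6624 against 7721 and 10791. The 2 higher genes had both mutants above both wild types, where 26.6% of all genes did. They were tp63, at 273 and 200 against 185 and 199 and so barely apart, and cldni, at 25 and 37 against 21 and 23. At an unadjusted p below 0.05 (limma) 2 skin genes were lower, krt4 and epcam, where 6.93% of all genes were called lower. The gene epcam, at 8 and 6 against 21 and 42, reached the minimum mean through wild type alone, which fixed the direction of its means. Cartilage and bone markers were lower at 4 and higher at 3 of 7 tested (median -0.26), with sums of 3514 and 3660 against 3428 and 3109. The 3 higher genes each had an unadjusted p below 0.05 (limma), where 12.8% of all genes did, and 0 had an adjusted p below 0.05. They were matn4, at 1463 and 512 against 352 and 292, acana, at 182 and 109 against 77 and 64, and snorc, at 15 and 25 against 8 and 3. Of these, snorc reached the minimum mean through the mutants alone, which fixed the direction of its means. Among the lower genes sox9a was at 56 and 44 against 69 and 98. The gene sp7 had a mean below 10. The part of these cell types in the collagen values was not tested.

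**Figure D5:**
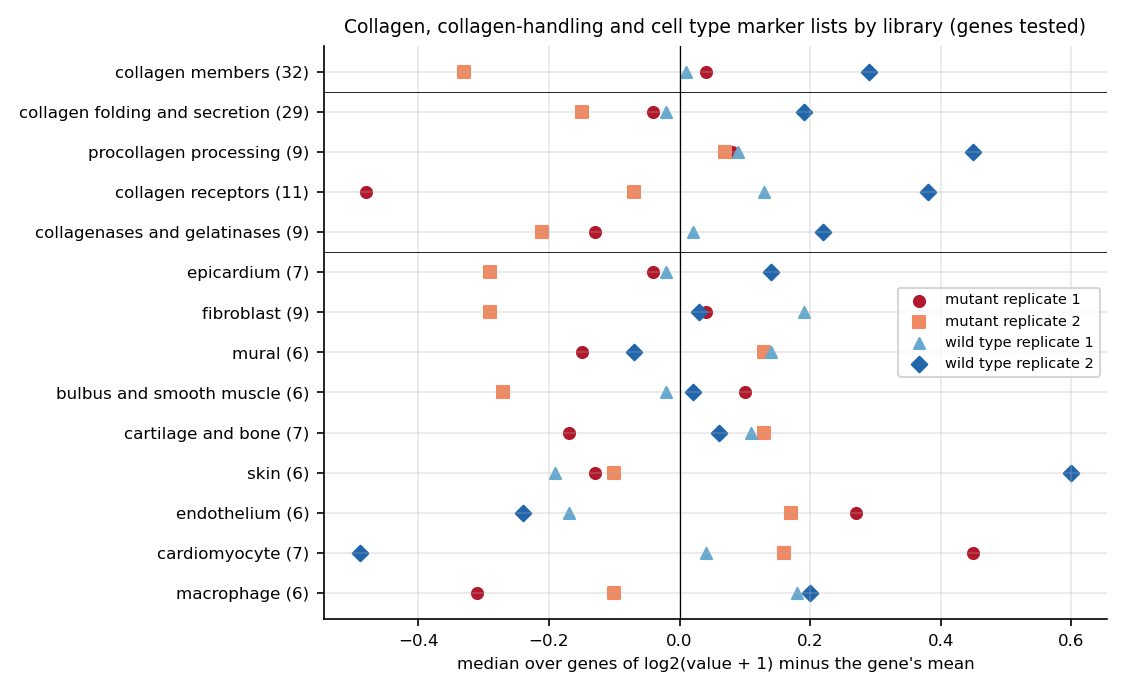
Median over genes of the deviation of log2(value + 1) from each gene's mean, for the 32 collagens, 4 collagen-handling lists and 9 cell type marker lists in each library, with the number of genes tested in parentheses. The collagens are lowest in mutant replicate 2 at -0.33 and highest in wild-type replicate 2 at 0.29. Also lowest in mutant replicate 2 are the fibroblast and epicardium lists, each at -0.29, and bulbus and smooth muscle at -0.27. So are collagenases and gelatinases at -0.21 and collagen folding and secretion at -0.15. The cardiomyocyte list is lowest in wild-type replicate 2 at -0.49.

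The 9 named collagens below the minimum mean were not tested. They were col8a1a, col5a2b, col19a1, col5a3b, col9a2, col28a2b, col14a1b, col7a1l and col17a1b, with means from 4.0 to 9.5. Among these, col5a3b was at 0 and 2 in the mutants and at 0 and 23 in wild type, and col17a1b at 1 and 5 against 4 and 28, each high in wild-type replicate 2 only. The 10 tested genes with a mean under 50 had a median log2 fold change of -0.61, against -0.14 over all tested genes of that level, and 7 of them were lower. Among these 7, col10a1a, col24a1 and col28a1b reached the minimum mean through wild type alone. Those 10 genes held between 162 and 376 summed counts in a library, so each value rests on few reads.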

How the data were processed

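Stranded poly(A) RNA libraries of dissected ventricles were made with a TruSeq kit, per the labels' protocols. The submitters' processing notes name STAR 2.4.0a, featureCounts 1.4.5-p1, DESeq2 1.6.2 and the build GRCz10, without settings such as strand. The largest coordinate of the table, 78048911 on chromosome 4, is larger than chromosome 4 of GRCz10, so coordinates are printed as deposited with the build unsettled. The deposited value is a whole-number score, a read count that the authors divided by a size factor and rounded. The spacing of low values gave factors of 0.874, 0.946, 0.952 and 1.32 in the order mutant 1, mutant 2, wild type 1, wild type 2, and depth is the value total times that factor.

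Values on log2(value + 1) were compared with limma 3.58.1 (limma-trend, R 4.3.3) over the 16730 genes with a mean of 10 or more, with 2-sided p-values adjusted by Benjamini-Hochberg to a threshold of 0.05. The scale understates changes of low genes. The fit had 2 residual degrees of freedom, plus 4.01 from other genes. It was tested on simulated data with changes larger than those of most collagen genes here, which says nothing of smaller changes. Collagen genes with a mean of 50 or more or an unadjusted p below 0.05 are given per library, and of each handling list the 3 genes with the smallest p. Classes follow the collagen type number. The members and lists were chosen with earlier results of these data known. Marker genes and COL-type symbols were matched by table symbol or by current symbol of the Ensembl ID. Alternatives covered pseudocount, filter, scaling, voom, a replicate block and leaving out each library. Figures used Python 3.11.15 with matplotlib 3.10.9.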

Additional observations from a re-analysis of the deposited data

How the results depend on the processing

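Across 11 alternatives, limma-trend and voom on approximate reads gave 0 genes with an adjusted p below 0.05 (2145 and 2452 at an unadjusted p below 0.05). With no gene called under any of them, the unchanged calls of the 24 collagen genes named say nothing of stability. The number of collagens at an unadjusted p below 0.05 (6) was 3 with genes of a mean of 50 or more only, and 1 to 4 with a library left out; by another tool, voom, it was 6. With the sample number as a replicate block it was 7 against 6, and no gene was called with or without the block. Same-numbered libraries did not deviate together (r = 0.00406 across genes), so the numbers were not taken as pairs. Scaling to equal totals without mitochondrial genes moved the median of all genes to -0.18 and that of the microfibrillar genes to -0.44, which was -0.48 under quantile normalisation; relative to all genes the former is no lower than before. With a mean of 50 or more, the network median was -0.29 (1 gene) and that of the other classes 0.37 (3 genes). Of the 24 genes, 15 kept their sign throughout; col1a1a turned to -0.28 under quantile normalisation and to -0.13 at equal totals. With a library left out, medians ranged from -0.60 to -0.10 for all collagens, -0.60 to 0.08 for fibrillar, -0.87 to -0.28 for FACIT, -0.40 to -0.10 for microfibrillar and -0.43 to 0.38 for other classes, and the number of lower genes from 18 to 26. On the same terms col11a1a ranged from -1.23 to 0.15, col1a1a from -0.61 to 0.72, col1a1b from -0.66 to 0.63, col1a2 from -0.59 to 0.54, col2a1b from -0.08 to 0.98, col5a1 from -0.58 to 0.25, col5a3a from -0.21 to 0.03, col6a1 from -0.24 to 0.08 and col8a1b from -1.01 to 0.43. The cause was not tested. The collagen I genes differed between the mutant libraries by 2.19-fold to 2.51-fold, which limits what 2 libraries per genotype can show.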

Other observations

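A further collagen gene lay outside the name rule because the table lists it under a clone name. It is ENSDARG00000089078 (current symbol col23a1b), a transmembrane collagen, and it was chosen after its values were seen. It stood at 1380 and 1191 in the mutants and at 905 and 1113 in wild type, so both mutants were above both wild types. The log2 fold change was 0.35 (SE 0.208, limma, unadjusted p = 0.141, adjusted p = 0.445). With its duplicate, ENSDARG00000095339 (current symbol col23a1a), the groups overlapped, at 17 and 11 against 27 and 8.

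Some collagen genes overlap another gene of the table on the opposite strand, and no source used here states whether counting used strand. Those partners had a mean of 5.0 at col1a1a and 10 at col1a2, small beside the collagens themselves, whereas at col10a1b the partner nt5dc1 had a mean of 40 against 42.5, so reads of that pair cannot be told apart.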
